A study of Mus musculus with 12 samples.

Results

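The proteasome genes described here are the 47 mouse genes on an Agilent array whose name is Psma, Psmb, Psmc, Psmd, Psme, Psmf or Psmg followed by a number, out of 26228 gene symbols. They had 78 spots, and each gene is represented by the spot with the highest mean over the 12 arrays of the series. The arrays measured RNA of female B6C3F1/Nctr mice in 4 groups of 3 arrays: lung after acrylamide at 0.7 mM (title numbers 28, 29 and 30), lung of untreated controls (4, 5 and 6), liver after acrylamide at 0.7 mM (27, 29 and 30) and liver of untreated controls (1, 3 and 4). Acrylamide is a small reactive amide, the controls are described as matched for age, and neither age, route nor length of exposure is given in the sources used here. Values below are log2 intensities over the array's 75th percentile, so 0 is that percentile and 1 unit is a factor of 2 in intensity. Spots of different genes bind with different strength, so each gene is compared between arrays and not with other genes. Of the 47 genes, 46 were tested in every comparison. The exception, Psmb11, the catalytic subunit of the thymus proteasome, was above background on 2 of 12 arrays.

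The proteasome degrades proteins that carry ubiquitin chains. Its core particle is a barrel of alpha rings (Psma genes) around beta rings (Psmb genes), in which 3 beta subunits hold the active sites, and a regulatory particle of ATPases (Psmc) and other subunits (Psmd) binds, unfolds and feeds in the substrate. In immune cells and after interferon, Psmb8, Psmb9 and Psmb10 take the places of the constitutive catalytic subunits Psmb5, Psmb6 and Psmb7. This immunoproteasome cuts proteins into peptides for presentation on MHC class I. Alternative caps (Psme) open the core without ATP, Psmf1 inhibits it, and Psmg proteins assemble it.

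Promoter windows from RefSeq (build GRCm38.p6, 250 bases before to 50 after the start) were held for 39 of the 47 genes, as 41 windows. Those of 2 immunoproteasome subunits (Psmb8, chr17:34197945-34198244, plus strand; Psmb9, chr17:34187281-34187580, minus strand), of 2 of the constitutive subunits they replace (Psmb5, chr14:54617946-54618245, minus strand; Psmb6, chr11:70525107-70525406, plus strand) and of the activator Psme3 (chr11:101315963-101316262, plus strand) are shown because the tissue results turn on these genes. Capitals mark matches, on either strand, to a gamma-activated site (TTCNNNGAA), an antioxidant response element core (TGACNNNGC), a GC box (GGGCGG) or a CCAAT box (CCAAT).
Psmb8: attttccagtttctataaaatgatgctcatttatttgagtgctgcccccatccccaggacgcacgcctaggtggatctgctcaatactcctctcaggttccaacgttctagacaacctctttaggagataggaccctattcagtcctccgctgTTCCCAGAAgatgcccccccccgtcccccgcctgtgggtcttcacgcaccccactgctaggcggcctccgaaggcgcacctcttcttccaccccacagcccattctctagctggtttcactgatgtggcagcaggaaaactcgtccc
Psmb9: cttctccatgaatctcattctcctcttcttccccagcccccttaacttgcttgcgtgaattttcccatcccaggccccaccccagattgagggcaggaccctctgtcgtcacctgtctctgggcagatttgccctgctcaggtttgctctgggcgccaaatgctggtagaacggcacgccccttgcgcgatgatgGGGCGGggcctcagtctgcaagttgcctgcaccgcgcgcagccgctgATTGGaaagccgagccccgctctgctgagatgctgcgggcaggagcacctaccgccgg
Psmb5: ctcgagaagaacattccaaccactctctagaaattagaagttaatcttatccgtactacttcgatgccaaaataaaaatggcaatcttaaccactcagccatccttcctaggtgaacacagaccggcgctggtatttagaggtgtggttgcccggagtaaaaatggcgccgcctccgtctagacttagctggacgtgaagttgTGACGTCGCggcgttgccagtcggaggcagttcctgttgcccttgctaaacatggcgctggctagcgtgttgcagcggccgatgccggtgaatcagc
Psmb6: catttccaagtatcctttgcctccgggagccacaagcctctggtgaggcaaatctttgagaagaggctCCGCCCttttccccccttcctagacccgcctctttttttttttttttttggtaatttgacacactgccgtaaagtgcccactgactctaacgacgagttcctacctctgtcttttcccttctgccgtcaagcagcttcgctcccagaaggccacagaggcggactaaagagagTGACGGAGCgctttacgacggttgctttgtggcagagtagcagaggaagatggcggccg
Psme3: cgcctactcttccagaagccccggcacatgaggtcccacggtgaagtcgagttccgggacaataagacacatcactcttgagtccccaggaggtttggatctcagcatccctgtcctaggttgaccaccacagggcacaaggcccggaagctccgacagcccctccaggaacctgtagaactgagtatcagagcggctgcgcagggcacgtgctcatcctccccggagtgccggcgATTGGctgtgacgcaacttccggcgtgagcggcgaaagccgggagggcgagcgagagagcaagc
The marked letters in Psmb8 are a gamma-activated site, and those in Psmb9 a GC box and then a CCAAT box on the opposite strand. Both constitutive genes held the antioxidant response element core, with a GC box further upstream in Psmb6, while Psme3 held a CCAAT box. The Psmb9 window shares 275 of 300 bases with that of Tap1, which encodes a peptide transporter and is read in the other direction. Over the 41 windows of proteasome genes, the antioxidant core stood in 6 (14.6%, against 12.4% of all 32851 windows), the gamma-activated site in 3 (7.32%, against 8.30%) and the CCAAT box in 14 (34.2%, against 37.4%). The GC box stood in 22 (53.7%, against 35.7%). An interferon regulatory factor element (GAAA, any 2 bases and GAAA again, both strands) stood in 5 (12.2%, against 3.44%), those of Psmb3, Psmd4, Psmd9, Psme1 and Psmg4, and Psmb10 held none of the 5 motifs. A match describes letters only.

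The tissue entry of every array and the design text say liver, whereas titles and source names give lung for 6 arrays, so markers were checked. The mean of 10 alveolar type 2 genes was 5.03 to 5.18 on lung acrylamide, 5.16 to 5.31 on lung control, -2.86 to -1.40 on liver acrylamide and -3.53 to -3.20 on liver control arrays. The mean of 12 hepatocyte genes was -1.99 to -1.09 on lung acrylamide, -2.09 to -1.19 on lung control, 7.54 to 7.92 on liver acrylamide and 7.68 to 7.81 on liver control arrays, so the tissue of the titles is used. Titles of all lung arrays open with the code 18 and those of all liver arrays with 19, followed by a 1 or 2. These codes are taken here as slide and slide row, which the titles do not name. Slide and tissue cannot be told apart here. Liver acrylamide 30 stood apart, with the lowest 75th percentile (294.5, against 423.9 to 1376 on the other arrays) and a background limit of 16.77 against 2.35 to 4.45. Lung genes were raised on liver acrylamide 27 and 29, where the mean of 4 club cell genes was 2.77 and 2.2, against -0.96 on acrylamide 30 and -0.87 to -0.54 on control arrays. The labels do not say whether the 3 arrays of a group hold 3 animals, and p-values then measure a spread between arrays that may be technical.

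Most proteasome genes were lower in lung than in liver. On the acrylamide arrays 42 of 46 were called lower in lung, and on the untreated arrays 41 of 46, with none called higher (limma, Benjamini-Hochberg adjusted p under 0.05 over all genes). These counts rest in part on the scaling: after quantile normalization 27 were called lower and 1 higher (Psmb9) on acrylamide arrays and 26 lower and 1 higher (Psmb9) on untreated arrays. With median scaling 33 were called lower on acrylamide arrays, and 31 lower and 1 higher (Psmb9) on untreated arrays. Tissue differences were common: 72.9% of all 22106 genes tested were called on the acrylamide arrays and 74.4% of 22426 on the untreated arrays, 41.5% and 42.4% of all genes as lower in lung and 31.3% and 32.0% as higher. Where lung and liver arrays are said below not to overlap, the share of all genes for which this holds is not given here. The median lung minus liver difference of the proteasome genes was -0.92 log2 units on acrylamide arrays and -0.91 on untreated arrays, against -0.25 on acrylamide arrays and -0.27 on untreated arrays over all genes. Of the 46 genes, 43 lay below the median of all genes on acrylamide arrays and 41 on untreated arrays. A fall of at least 2-fold was called for 19 genes on acrylamide arrays (31.4% of all genes) and 21 on untreated arrays (32.6%). The size of these differences depends on how the arrays are scaled: under quantile normalization the medians were -0.39 on acrylamide and -0.40 on untreated arrays, against 0.07 on acrylamide and 0.02 on untreated arrays over all genes. The median of the proteasome genes thus lay 0.66 log2 units below that of all genes on acrylamide arrays and 0.63 below it on untreated arrays by the 75th percentile, and, after quantile normalization, 0.47 below it on acrylamide arrays and 0.42 on untreated arrays. The gap also depended on the background filter. Without that filter, the median of the proteasome genes minus that of all genes was -0.26 on acrylamide arrays and -0.33 on untreated arrays. In RNA of whole tissue, fewer cells of a type and less RNA per cell cannot be told apart.

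**Figure D1:**
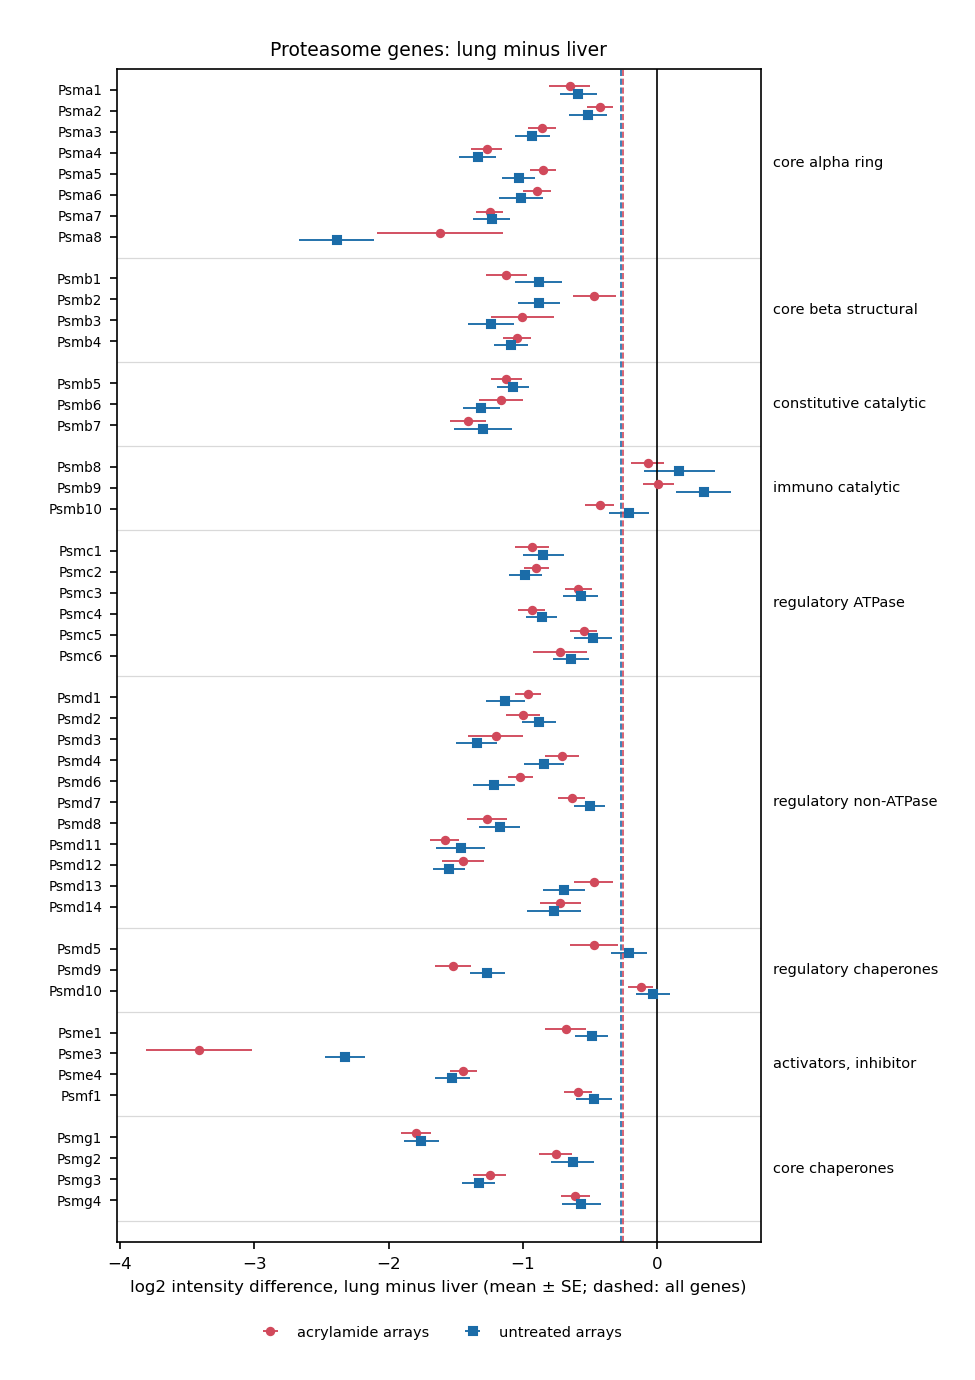
Lung minus liver differences (log2 intensity, mean ± SE, 3 arrays against 3) of the 46 tested proteasome genes by role, for acrylamide arrays (red) and untreated arrays (blue), with dashed lines at the medians of all genes (-0.25 and -0.27). Most genes lie left of the dashed lines, and Psmb8, Psmb9 and Psmd10 lie near 0.

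In the alpha rings, whose subunits form the gate of the core, all 8 genes were called lower in lung, with medians of -0.88 on acrylamide arrays and -1.02 on untreated arrays. Psma4 differed by -1.27 ± 0.11 on acrylamide arrays and -1.34 ± 0.14 on untreated arrays (SE, 3 arrays against 3), and Psma7 by -1.25 ± 0.10 on acrylamide arrays and -1.23 ± 0.14 on untreated arrays. The smallest difference was that of Psma2, at -0.43 ± 0.09 on acrylamide arrays and -0.52 ± 0.14 on untreated arrays. Psma8, the alpha subunit of male germ cells, stood at -3.23, -2.99 and -2.57 on the lung acrylamide arrays, -3.72, -2.75 and -3.41 on the lung control arrays, -2.28, -1.11 and -0.55 on the liver acrylamide arrays and -1.11, -0.63 and -0.97 on the liver control arrays. Every lung array was below every liver array. The Psma8 spot was lower in lung by 1.62 ± 0.47 on acrylamide arrays (limma adjusted p = 0.0227) and by 2.39 ± 0.28 on untreated arrays (limma adjusted p = 0.000296). Whether this spot reads Psma8 RNA in lung and liver of female mice was not tested. The acrylamide call was lost without liver acrylamide 29 (-1.52), lung acrylamide 28 (-1.47) or lung acrylamide 29 (-1.59) and within slide row 1 (-1.49), and over the 19 other settings the adjusted p ran from 0.00226 to 0.125.

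Among the structural beta subunits all 4 genes were called lower in lung on both sets of arrays. The call of Psmb2 on acrylamide arrays (-0.47, adjusted p = 0.0396) was lost without any 1 of 5 of the 6 arrays, liver acrylamide 30 being the exception, and after quantile normalization (-0.37) or median scaling (-0.29). On untreated arrays the limma adjusted p of Psmb2 ran from 0.000428 to 0.0996 over the 19 other settings, so that call was not kept in all. Psmb1 stood at 3.14, 3.23 and 3.22 on the lung acrylamide arrays, 2.84, 3.16 and 3.08 on the lung control arrays, 4.43, 4.49 and 4.04 on the liver acrylamide arrays and 4.03, 3.65 and 4.05 on the liver control arrays. Its lung values were all below its liver values, with differences of -1.12 ± 0.15 on acrylamide arrays and -0.88 ± 0.17 on untreated arrays, and the untreated difference was not called after quantile normalization (-0.39) or within slide row 1 (-0.67). Psmb3 stood at 5.17, 4.86 and 4.80 on the lung acrylamide arrays, 4.91, 4.91 and 4.95 on the lung control arrays, 5.63, 5.82 and 6.39 on the liver acrylamide arrays and 5.87, 6.43 and 6.17 on the liver control arrays. The lung arrays were again lower throughout, by 1.01 ± 0.23 on acrylamide arrays and 1.24 ± 0.17 on untreated arrays. Psmb4 differed by -1.04 ± 0.10 on acrylamide arrays and -1.09 ± 0.13 on untreated arrays.

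The constitutive catalytic subunits were called lower in lung, and the immunoproteasome subunits were not called, apart from Psmb10 on acrylamide arrays. Psmb5, which carries the chymotrypsin-like activity, stood at 2.89, 2.76 and 2.79 on the lung acrylamide arrays, 2.95, 2.82 and 2.94 on the lung control arrays, 3.81, 3.93 and 4.08 on the liver acrylamide arrays and 3.99, 3.97 and 3.97 on the liver control arrays. Psmb6, the caspase-like subunit, stood at 5.87, 5.71 and 5.68 on the lung acrylamide arrays, 5.63, 5.77 and 5.66 on the lung control arrays, 6.67, 6.90 and 7.19 on the liver acrylamide arrays and 6.82, 7.11 and 7.05 on the liver control arrays. Psmb7, the trypsin-like subunit, stood at 1.296, 1.51 and 1.57 on the lung acrylamide arrays, 0.86, 1.33 and 1.3 on the lung control arrays, 2.94, 2.95 and 2.71 on the liver acrylamide arrays and 2.67, 2.12 and 2.59 on the liver control arrays. For each of the 3 genes the 6 lung arrays lay below the 6 liver arrays without overlap. Of all genes, 41.5% were called lower in lung on acrylamide arrays and 42.4% on untreated arrays, and the share without overlap is not given. On acrylamide arrays the falls were 1.12 ± 0.12, 1.17 ± 0.16 and 1.41 ± 0.13 log2 units for Psmb5, Psmb6 and Psmb7 (adjusted p = 0.000319, 0.00121 and 0.00021), and on untreated arrays 1.07 ± 0.12, 1.31 ± 0.14 and 1.299 ± 0.22 (adjusted p = 0.000234, 0.000187 and 0.0016).

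Psmb8, which replaces Psmb5, stood at 2.77, 2.80 and 2.79 on the lung acrylamide arrays, 2.49, 2.88 and 3.09 on the lung control arrays, 2.71, 2.82 and 3.05 on the liver acrylamide arrays and 3.08, 2.22 and 2.66 on the liver control arrays. Lung and liver arrays overlapped, with differences of -0.07 ± 0.12 on acrylamide arrays (95% interval -0.38 to 0.23, adjusted p = 0.622) and 0.17 ± 0.27 on untreated arrays (-0.48 to 0.81, adjusted p = 0.594). Psmb9, which replaces Psmb6, stood at 2.88, 2.86 and 2.89 on the lung acrylamide arrays, 2.76, 3.06 and 3.22 on the lung control arrays, 2.73, 2.87 and 3.01 on the liver acrylamide arrays and 2.87, 2.34 and 2.80 on the liver control arrays. It too overlapped, with differences of 0.01 ± 0.11 on acrylamide arrays (-0.27 to 0.29, adjusted p = 0.946) and 0.35 ± 0.20 on untreated arrays (-0.15 to 0.84, adjusted p = 0.166). Psmb10, which replaces Psmb7, stood at 4.64, 4.56 and 4.69 on the lung acrylamide arrays, 4.67, 4.65 and 4.85 on the lung control arrays, 4.98, 5.17 and 5.02 on the liver acrylamide arrays and 4.999, 4.73 and 5.06 on the liver control arrays. It was called lower in lung on acrylamide arrays (-0.43 ± 0.11, adjusted p = 0.0126) and was not called on untreated arrays (-0.21 ± 0.15, 95% interval -0.57 to 0.15, adjusted p = 0.246). The size of these differences rests on the scaling, and for some of them the direction does too. Quantile normalization turned the sign of Psmb10 on both sets of arrays and of Psmb8 on acrylamide arrays. Psmb9 on both sets and Psmb8 on untreated arrays were higher in lung with and without it. After quantile normalization Psmb8, Psmb9 and Psmb10 were 0.30, 0.39 and 0.18 higher in lung on acrylamide arrays. On untreated arrays they were 0.52, 0.73 and 0.46 higher. Psmb10 was then not called on acrylamide arrays, nor with median scaling (-0.25). Psmb9 passed as higher in lung, with adjusted p = 0.0181 on both sets, and over the 19 other settings its adjusted p was 0.0181 to 0.991 on acrylamide arrays and 0.0181 to 0.643 on untreated arrays.

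**Figure D2:**
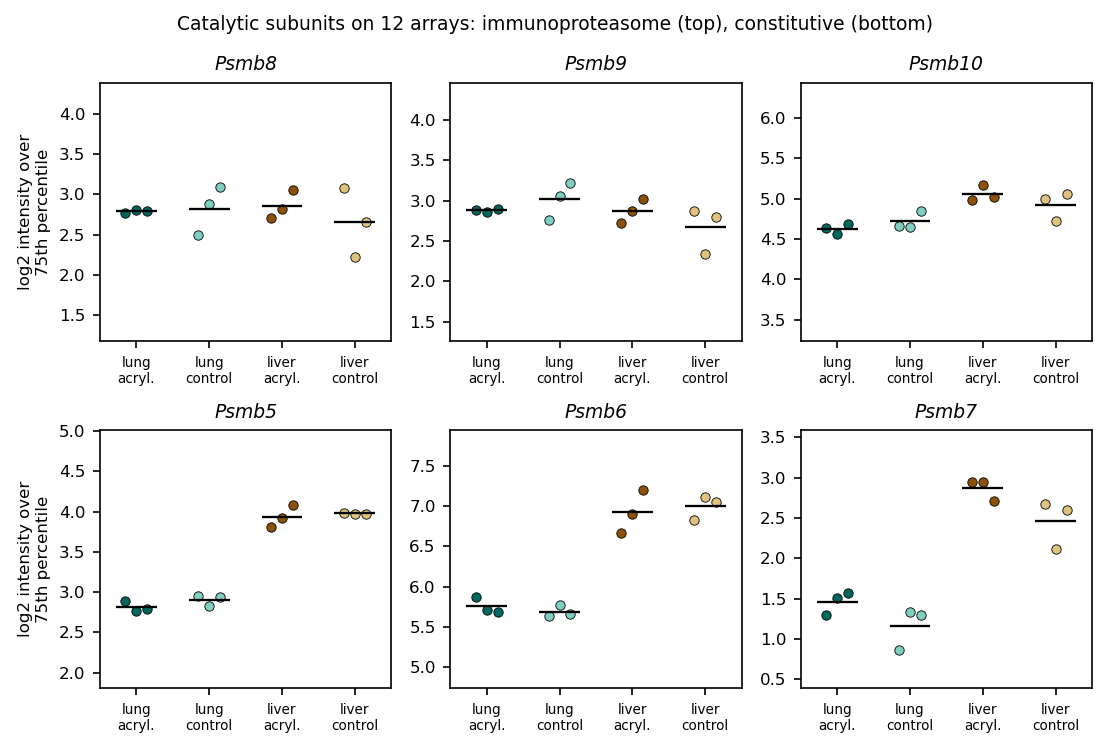
Log2 intensity over the array's 75th percentile of the immunoproteasome subunits (top) and the constitutive subunits they replace (bottom) on each of 12 arrays, with bars at group means of 3 arrays. The constitutive subunits sit lower on lung than on liver arrays, and Psmb8 and Psmb9 overlap between the tissues.

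The difference between 2 spots of the same array does not depend on a factor common to that array, so each immunoproteasome subunit was set against the subunit it replaces. Psmb8 minus Psmb5 was -0.05 ± 0.21 on lung arrays (SD, n = 6, range -0.45 to 0.15) and -1.199 ± 0.30 on liver arrays (SD, n = 6, range -1.75 to -0.90). Psmb9 minus Psmb6 was -2.77 ± 0.19 on lung arrays (range -2.99 to -2.44) and -4.19 ± 0.31 on liver arrays (range -4.77 to -3.94). Psmb10 minus Psmb7 was 3.36 ± 0.28 on lung arrays (range 3.05 to 3.81) and 2.33 ± 0.19 on liver arrays (range 2.04 to 2.604). None of the 3 pairs overlapped between tissues. The balance of Psmb8 over Psmb5 was 2.21-fold higher in lung, that of Psmb9 over Psmb6 2.67-fold and that of Psmb10 over Psmb7 2.05-fold. Each gave p = 0.00216 in a two-sided exact permutation test over 924 splits of the arrays, the smallest p these splits can give, and adjusted p = 0.00216 over the 3 pairs. Any pair of spots without overlap between the tissues gives this p, and the share of such pairs over all genes was not counted. The 6 arrays of a tissue hold acrylamide and control arrays together, and tissue goes with slide. The test thus describes unequal change of paired spots between the 2 sets of arrays and not the share of either proteasome. Over all genes, 31.3% were called higher and 41.5% lower in lung on acrylamide arrays, and 32.0% and 42.4% on untreated arrays. Of 13 leukocyte genes, 11 were called higher and 1 lower in lung on acrylamide arrays, and likewise 11 and 1 on untreated arrays. Their mean level was 0.16 to 0.47 on lung acrylamide, -0.38 to 0.76 on lung control, -2.13 to -1.81 on liver acrylamide and -2.05 to -1.61 on liver control arrays. All 13 were above background on some array of every group. Other cell type lists differed as well: all 5 endothelial genes and 3 of 4 club cell genes were called higher in lung on both sets of arrays. Of 10 alveolar type 2 genes, 9 were called higher on acrylamide arrays and 10 on untreated arrays, while all 12 hepatocyte genes were called lower on both. The part of any of these lists in the pair differences was not tested. Macrophage genes divided: of 8, 2 were called higher and 5 lower in lung on acrylamide arrays, and 2 higher and 4 lower on untreated arrays. Lyz2 stood between 3.33 and 4.47 on lung arrays and between -3.37 and -0.95 on liver arrays. Marco stood between 3.11 and 4.03 on lung arrays and between 0.64 and 1.999 on liver arrays. Clec4f, Vsig4 and Cd5l went the other way, between -8.88 and -3.36 on lung arrays and between 0.13 and 4.98 on liver arrays. The mean level of the 8 genes, which joins these opposite differences, was -1.16 to -0.69 on lung acrylamide and -1.52 to -0.95 on lung control arrays. On liver acrylamide arrays that mean was 1.74 to 2.16, and on liver control arrays 1.04 to 1.66.

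The 6 ATPases of the regulatory particle were all called lower in lung, by 0.55 (Psmc5) to 0.94 (Psmc4) log2 units on acrylamide arrays and by 0.48 (Psmc5) to 0.98 (Psmc2) on untreated arrays. The 11 other subunits of the particle were called lower as well, with medians of -0.999 on acrylamide arrays and -1.13 on untreated arrays. Psmd11 and Psmd12, of the lid, had the largest falls of this class, 1.58 ± 0.11 and 1.45 ± 0.16 on acrylamide arrays and 1.46 ± 0.18 and 1.55 ± 0.12 on untreated arrays. Psmd14, the enzyme that cuts ubiquitin from substrates, fell by 0.72 ± 0.15 on acrylamide arrays and 0.77 ± 0.20 on untreated arrays. A further spot of Psmd14 differed by -0.49 on acrylamide arrays and by only -0.02 on untreated arrays. Psmd4, a ubiquitin receptor, stood at 5.29, 5.15 and 5.09 on the lung acrylamide arrays, 5.28, 5.28 and 5.29 on the lung control arrays, 5.84, 5.75 and 6.07 on the liver acrylamide arrays and 5.92, 6.33 and 6.12 on the liver control arrays. Psmd2, a scaffold and receptor subunit of the base, stood at 3.68, 3.62 and 3.63 on the lung acrylamide arrays, 3.90, 3.71 and 3.75 on the lung control arrays, 4.52, 4.54 and 4.86 on the liver acrylamide arrays and 4.60, 4.76 and 4.65 on the liver control arrays. Both were lower on every lung array than on any liver array, Psmd4 by 0.71 ± 0.13 on acrylamide arrays and 0.84 ± 0.15 on untreated arrays. Psmd2 was lower by 0.999 ± 0.13 on acrylamide arrays and 0.88 ± 0.13 on untreated arrays.

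Chaperones that build the base of the regulatory particle did not move as 1 group. Psmd9 was called lower in lung (-1.52 ± 0.13 on acrylamide arrays, -1.27 ± 0.13 on untreated arrays). Psmd10, also known as gankyrin, stood at 2.37, 2.396 and 2.36 on the lung acrylamide arrays, 2.39, 2.49 and 2.43 on the lung control arrays, 2.47, 2.45 and 2.57 on the liver acrylamide arrays and 2.37, 2.54 and 2.49 on the liver control arrays. Its differences were -0.12 ± 0.09 on acrylamide arrays (95% interval -0.36 to 0.11, adjusted p = 0.280) and -0.03 ± 0.12 on untreated arrays (-0.33 to 0.27, adjusted p = 0.826), so both intervals leave out a 1.5-fold change. Psmd5 stood at 1.19, 1.36 and 1.57 on the lung acrylamide arrays, 1.102, 1.39 and 1.31 on the lung control arrays, 2.01, 1.96 and 1.55 on the liver acrylamide arrays and 1.52, 1.42 and 1.498 on the liver control arrays. It missed the threshold on acrylamide arrays (-0.47 ± 0.18, adjusted p = 0.0563) and on untreated arrays (-0.21 ± 0.14, adjusted p = 0.202). Of the core chaperones all 4 were called lower in lung. Psmg1, which pairs with Psmg2 to assemble the alpha ring, stood at 2.85, 2.59 and 2.80 on the lung acrylamide arrays, 2.82, 2.79 and 2.61 on the lung control arrays, 4.52, 4.57 and 4.54 on the liver acrylamide arrays and 4.45, 4.52 and 4.52 on the liver control arrays. It fell by 1.79 ± 0.11 on acrylamide arrays (adjusted p = 4.25e-05) and by 1.76 ± 0.13 on untreated arrays (adjusted p = 3.34e-05), while its partner Psmg2 fell by 0.76 ± 0.12 on acrylamide arrays and 0.63 ± 0.16 on untreated arrays.

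Of the caps and the inhibitor, all 4 genes were called lower in lung, by less than 1 log2 unit for Psme1 and Psmf1 and by more for Psme3 and Psme4. Psme1, a subunit of the interferon-inducible activator, stood at 4.30, 4.19 and 4.19 on the lung acrylamide arrays, 4.39, 4.36 and 4.22 on the lung control arrays, 4.70, 4.84 and 5.19 on the liver acrylamide arrays and 4.86, 4.80 and 4.76 on the liver control arrays. It differed by -0.68 ± 0.15 on acrylamide arrays and -0.49 ± 0.12 on untreated arrays (adjusted p = 0.00863 and 0.0109), and after quantile normalization neither was called, at -0.08 on acrylamide arrays and 0.15 on untreated arrays. The array names no Psme2, the partner of Psme1, by the rule. Psme2b, a near-identical copy whose spot may take signal from Psme2, was lower in lung by 0.59 ± 0.10 on acrylamide arrays and 0.64 ± 0.12 on untreated arrays (adjusted p = 0.00299 and 0.0033). Psme3, the activator of nuclear proteasomes, stood at 0.62, 0.86 and 0.82 on the lung acrylamide arrays, 0.96, 1.15 and 1.13 on the lung control arrays, 4.72, 4.53 and 3.28 on the liver acrylamide arrays and 3.38, 3.24 and 3.60 on the liver control arrays. It was 10.6-fold lower in lung on acrylamide arrays (-3.41 ± 0.39, adjusted p = 0.000529) and 5.02-fold lower on untreated arrays (-2.33 ± 0.15, adjusted p = 1.98e-05). Psme4, the activator known for its role in spermatogenesis and DNA repair, stood at 3.42, 3.49 and 3.53 on the lung acrylamide arrays, 3.26, 3.39 and 3.29 on the lung control arrays, 4.99, 4.95 and 4.84 on the liver acrylamide arrays and 4.69, 4.91 and 4.92 on the liver control arrays. It fell by 1.45 ± 0.10 on acrylamide arrays and 1.52 ± 0.13 on untreated arrays, with no overlap between tissues. Psmf1, an inhibitor of the core, stood at 0.89, 0.70 and 0.74 on the lung acrylamide arrays, 0.90, 0.86 and 0.93 on the lung control arrays, 1.43, 1.36 and 1.31 on the liver acrylamide arrays and 1.21, 1.39 and 1.505 on the liver control arrays. Its falls were 0.59 ± 0.11 on acrylamide arrays and 0.47 ± 0.13 on untreated arrays, and the untreated fall was not called without lung control 5 (-0.45), without liver control 4 (-0.40) or within either slide row. Under median scaling neither fall was called (-0.41 on acrylamide arrays, -0.27 on untreated arrays).

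**Figure D3:**
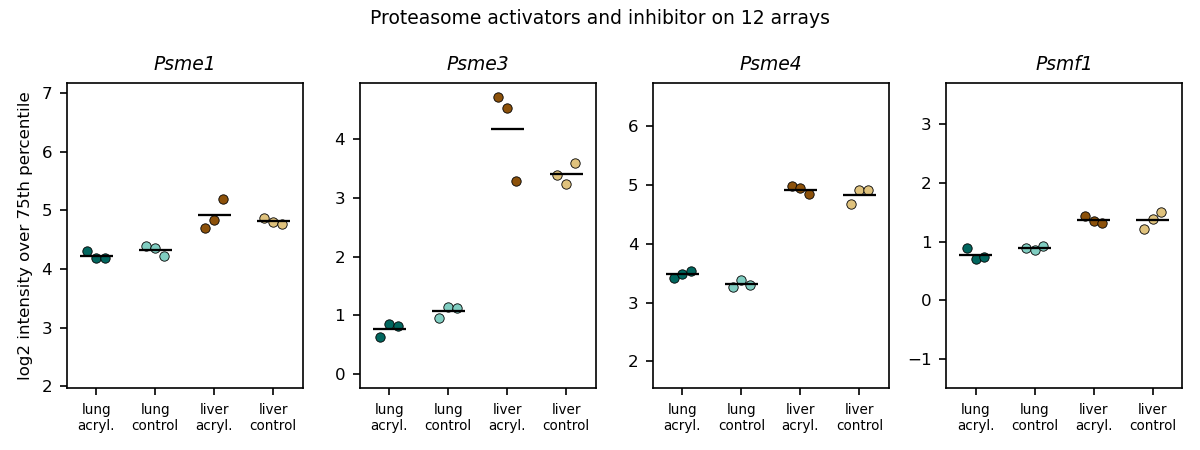
Log2 intensity over the array's 75th percentile of the proteasome activators Psme1, Psme3 and Psme4 and the inhibitor Psmf1 on each of 12 arrays, with bars at group means of 3 arrays. Psme3 lies between 0.62 and 1.15 on lung arrays and between 3.24 and 4.72 on liver arrays, where 2 of the 3 acrylamide arrays stand above the rest.

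Other genes of the pathway were mixed between the tissues. Beside the counts below, 41.5% of all genes were called lower in lung and 31.3% higher on acrylamide arrays. On untreated arrays these shares were 42.4% and 32.0%. Of 6 genes for ubiquitin and its activation, 5 were called lower in lung on both sets of arrays, with medians over the list of -0.69 on acrylamide arrays and -0.72 on untreated arrays. Of 17 assembly, shuttling and associated factors, 11 were called lower on both sets and 1 higher on acrylamide arrays, and the shuttle factor Rad23b fell by 1.28 ± 0.11 on acrylamide arrays and 1.66 ± 0.20 on untreated arrays. The receptor gene Adrm1 fell by 1.28 ± 0.15 on acrylamide arrays and the associated thioredoxin-like gene Txnl1 by 1.34 ± 0.21 on untreated arrays. The 6 genes of the NRF1 axis, which drives proteasome transcription, divided into 3 called higher and 2 lower on acrylamide arrays and 3 and 3 on untreated arrays. Maff, a small partner factor, was higher in lung by 3.23 ± 0.18 on acrylamide arrays and 2.79 ± 0.31 on untreated arrays. Ddi2, the protease that releases NRF1, was lower by 2.32 ± 0.11 on acrylamide arrays and 2.29 ± 0.15 on untreated arrays. Of 17 genes of class I antigen processing and its regulators, 3 were called higher and 10 lower in lung on acrylamide arrays, and 3 higher and 9 lower on untreated arrays. The 2 with the largest difference were Ciita, the master regulator of MHC class II, at 2.502 ± 0.13 on acrylamide arrays and 2.502 ± 0.14 on untreated arrays, and the leukocyte factor Irf8, at 1.70 ± 0.13 on acrylamide arrays and 1.88 ± 0.20 on untreated arrays. Tap1, whose promoter overlaps that of Psmb9, stood between 0.74 and 0.85 on lung acrylamide, 0.92 and 1.42 on lung control, 0.77 and 0.98 on liver acrylamide and 0.68 and 1.03 on liver control arrays.

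Acrylamide in lung was followed by no called difference among the proteasome genes. Limma called 0 of 46, as it called 0% of all 22226 genes. At unadjusted p under 0.05 there were 2, Psmb2 and Psme3, against 4.95% of all genes. The median acrylamide minus control difference was 0.04 log2 units, against -0.01 over all genes, with 29 genes higher (48.4% of all genes) and 17 lower. The 95% interval stayed inside a 2-fold change for 45 of the 46 genes and inside 1.5-fold for 42; Psma8 was the exception at 2-fold. Groups did not overlap for 4 genes that were higher (4.11% of all genes), Psma3, Psmb2, Psmd6 and Psme4, and for 2 that were lower (6.80%), Psmd2 and Psme3. Psmb2, a structural beta subunit, had 1.07, 1.18 and 1.11 on lung acrylamide arrays, against 0.85, 0.80 and 0.91 on lung control arrays. This is 0.27 ± 0.09 higher (95% interval 0.05 to 0.49, limma adjusted p = 0.966), but 2 other spots of Psmb2 gave -0.14 and -0.13. Psme3 had 0.62, 0.86 and 0.82 on lung acrylamide arrays, against 0.96, 1.15 and 1.13 on lung control arrays. It was 0.31 ± 0.11 lower (95% interval -0.59 to -0.04, limma adjusted p = 0.999). Psma8 (0.36 ± 0.29) and Psmb7 (0.29 ± 0.16) made up the largest rises with Psmb2, and Psmd2 (-0.15 ± 0.10) and Psmb9 (-0.14 ± 0.14) the largest falls with Psme3, each with adjusted p = 0.999. The 3 immunoproteasome subunits lay between -0.14 and -0.03 and the 3 constitutive ones between -0.09 and 0.29.

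In liver, acrylamide was likewise followed by no called difference. Limma called 0 of 46, as it called 0% of all 21076 genes, and 0 were at unadjusted p under 0.05, against 6.12% of all genes. The median difference was 0.02 log2 units, against -0.02 over all genes, with 24 genes higher (46.8% of all genes) and 22 lower. The 95% interval stayed inside a 2-fold change for 44 of the 46 genes, all but Psma8 and Psme3, and inside 1.5-fold for 32. Groups did not overlap for 4 genes that were higher (5.43% of all genes), Psmb7, Psmc4, Psmd5 and Psmd7, and for none that were lower (6.78%). Psmb7 had 2.94, 2.95 and 2.71 on liver acrylamide arrays, against 2.67, 2.12 and 2.59 on liver control arrays. Its difference was 0.40 ± 0.19 (95% interval -0.07 to 0.87, adjusted p = 0.782). Psmb1 had the same size of difference, 0.41 ± 0.20 (adjusted p = 0.782), but its acrylamide array 30 lay among the controls. The largest falls were those of Psma8 (-0.41 ± 0.44), Psmd4 (-0.24 ± 0.17) and Psmb3 (-0.21 ± 0.25), with adjusted p = 0.857, 0.803 and 0.867. Psmb8, Psmb9 and Psmb10 were at 0.21 ± 0.25, 0.20 ± 0.19 and 0.13 ± 0.15, and none of them separated the groups.

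**Figure D4:**
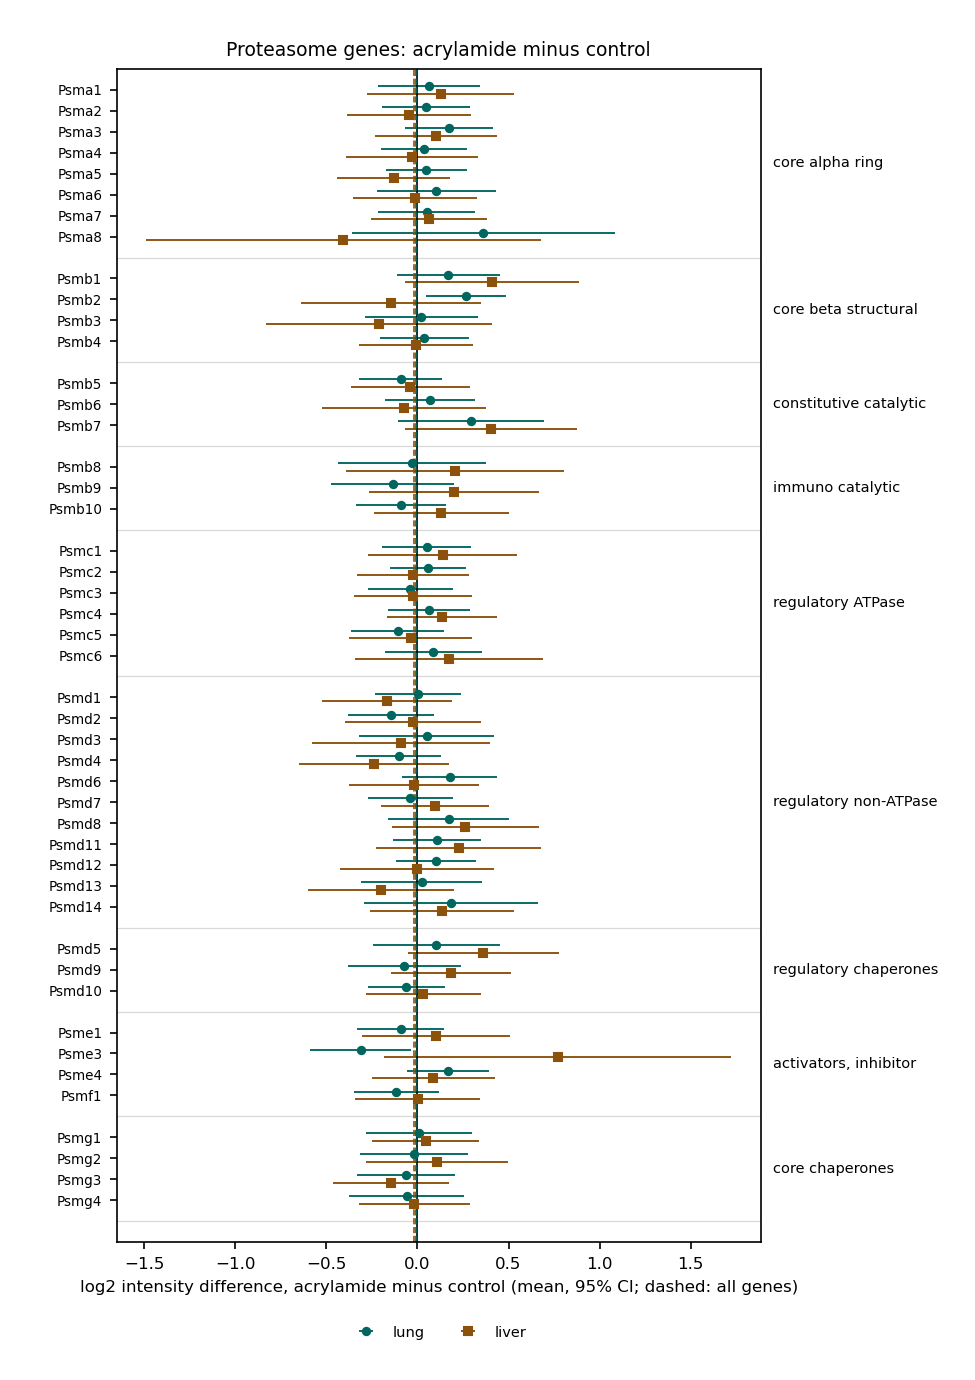
Acrylamide minus control differences (log2 intensity, mean and 95% interval, 3 arrays against 3) of the 46 tested proteasome genes by role in lung and in liver, with dashed lines at the medians of all genes (-0.01 and -0.02). The means lie close to 0, nearly all intervals cross it, and that of Psme3 in liver reaches 1.72.

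The pair differences of catalytic subunits gave no acrylamide result that 3 arrays against 3 could call, since the smallest p of 20 splits is 0.1. In lung, Psmb8 minus Psmb5 was 0.06 higher after acrylamide, Psmb9 minus Psmb6 was 0.21 lower and Psmb10 minus Psmb7 was 0.39 lower (exact permutation p = 1.0, 0.3 and 0.2). In liver the same differences were 0.25, 0.27 and -0.27 (exact permutation p = 0.4, 0.4 and 0.1).

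Psme3 differed most in its acrylamide difference between the tissues. In liver it had 4.72, 4.53 and 3.28 on liver acrylamide arrays, against 3.38, 3.24 and 3.60 on liver control arrays. Acrylamide 27 and 29 lay above every control and acrylamide 30 among them, which gave 0.77 ± 0.39 (95% interval -0.18 to 1.72, adjusted p = 0.782). The acrylamide effect in lung minus that in liver was -1.08 ± 0.44 for Psme3 (95% interval -2.06 to -0.10, limma adjusted p = 0.994 over 12 arrays), and it was the 1 gene of 46 at unadjusted p under 0.05, against 4.44% of all 23283 genes. No proteasome gene was called, and neither was any other gene (0%). Without liver acrylamide 30, which stood apart in signal, the difference was -1.53 with limma adjusted p = 0.00788. In that setting 0.357% of all genes were called lower and 0.228% higher, and liver acrylamide was left with arrays 27 and 29. With array weights the Psme3 difference was -1.38 with limma adjusted p = 0.0313, and 0.438% of all genes were called lower and 0.159% higher. Over the 24 other settings its adjusted p ran from 0.00788 to 1, and its value from -1.53 to -0.81. The same acrylamide arrays 27 and 29 carried the club cell genes given above, and had 75th percentiles of 620.1 and 621.5 against 294.5 on acrylamide 30 and 423.9 to 481.7 on control arrays. The part of these in the Psme3 values was not tested. The other largest values of this contrast were Psma8 (0.77 ± 0.58), Psmb2 (0.41 ± 0.22), Psmb3 (0.23 ± 0.30), Psmb9 (-0.34 ± 0.24) and Psmd5 (-0.26 ± 0.22), all with adjusted p = 0.994.

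Genes of the pathway outside the family followed the same pattern after acrylamide: none of the 17 associated factors, 6 ubiquitin, 6 NRF1 axis or 17 class I genes was called in lung or in liver. In lung the largest values included those of Maff (0.53 ± 0.16), Mafk (0.23 ± 0.16), Ciita (-0.36 ± 0.10), Tap1 (-0.31 ± 0.16), Ubqln2 (-0.26 ± 0.10) and Uba1 (0.16 ± 0.22). Their adjusted p lay between 0.960 and 0.999. In liver they were Ciita (-0.36 ± 0.16), Irf1 (-0.29 ± 0.19), Ubqln4 (0.29 ± 0.26), Rad23b (-0.29 ± 0.17), Nfe2l1, which encodes NRF1 (-0.29 ± 0.19), Mafg (-0.24 ± 0.16), Rps27a (-0.22 ± 0.17) and Uba1 (0.21 ± 0.12), with adjusted p between 0.782 and 0.840.

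Spots of the same gene did not always agree. Of the 47 genes, 23 had further spots, 31 in all. In the tissue comparison 29 of the 31 had the sign of the chosen spot on acrylamide arrays and 28 on untreated arrays, 93.6% and 90.3%, against 76.6% and 75.9% of 13310 such spot pairs over all genes. The exceptions included a dim spot of Psme4, which was 0.45 higher in lung on acrylamide arrays and 0.58 higher on untreated arrays where the chosen spot was lower. Likewise a further spot of Psmd7 was 0.40 higher in lung on acrylamide arrays and 0.03 higher on untreated arrays. On untreated arrays a further spot of Psmd13 was also 0.03 higher. For acrylamide in lung 19 of 31 had the same sign (61.3%, against 60.4% over all genes). For acrylamide in liver only 10 of 31 did (32.3%, against 58.3%). Of the 31 further spots 25 were higher after acrylamide, with a median of 0.23 log2 units, against -0.02 for the chosen spots. Over all genes 7758 of 13310 further spots were also higher, with a median of 0.09, against -0.05 for the chosen spots. The 2 arrays that carried club cell genes gave the widest gaps: relative to the control mean, the further spots exceeded the chosen ones by a median of 0.41 on acrylamide 27 and 0.51 on acrylamide 29, against 0.08 on acrylamide 30 and -0.16 to 0.19 on control arrays. Over all genes the median gap on those arrays was 0.07 and 0.11. Taking the mean of a gene's spots, the liver median of the proteasome genes was 0.13 log2 units, against 0.03 over all genes. Of the proteasome genes 31 were then higher and 15 lower, and still 0 were called.

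**Figure D5:**
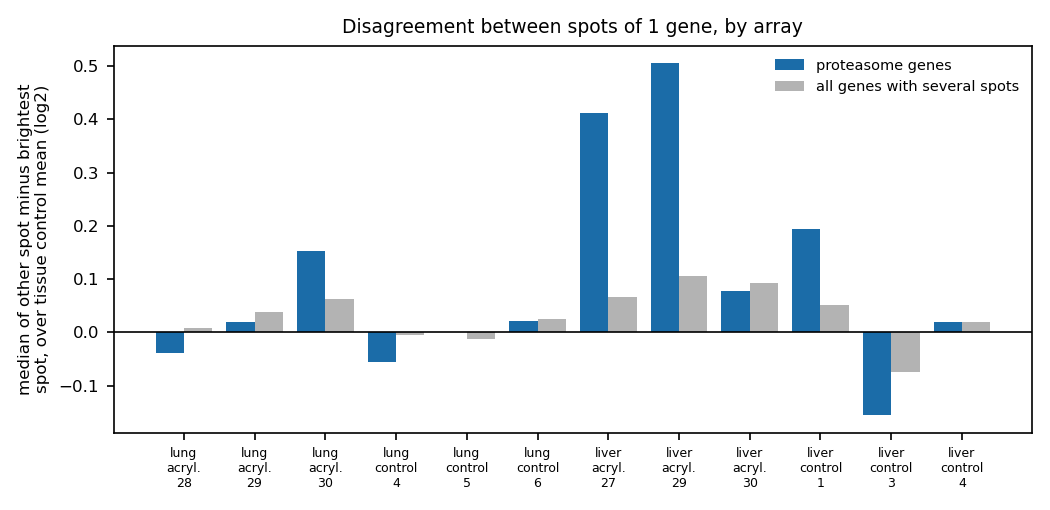
Median over 31 further spots of proteasome genes (blue) and over 13310 spots of all genes (grey) of the gap to the brightest spot of the same gene, relative to the mean of the tissue's control arrays (log2), for each of 12 arrays. The gaps of proteasome genes are largest on liver acrylamide 27 and 29, at 0.41 and 0.51.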

How the data were processed

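Total RNA was labelled with Cy3 and hybridised to Agilent 1-colour arrays, 12 in all. The deposited array files hold 1 linear intensity per spot. The authors used Agilent Feature Extraction 10.7 according to the submitters' processing notes, and background subtraction is not described in them. The deposited series matrix, tried as an alternative, holds this intensity rescaled so that the 75th percentile of each array is 1000.

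Groups came from titles and source names. The 1319 control spots were left out, and the array's 75th percentile over the 61657 other spots was subtracted from log2 of the deposited intensity. A spot above the 95th percentile of 308 negative controls counted as above background, and genes above it on at least 3 arrays of a fit were tested, each by its brightest spot. Spots were named through the Entrez number (38054) or accession (715) by a RefSeq table of GRCm38.p6, or kept the file's name (2242); 20646 had none. All 47 members kept their name.

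Fits used limma 3.58.1 (lmFit, eBayes) in R 4.3.3 within each pair of groups, and over 12 arrays for the difference between tissues; adjusted p is Benjamini-Hochberg over all genes tested, called under 0.05. Intervals are 95% from limma. Pair differences used exact permutation (scipy 1.17.1). The fits were tested on simulated data.

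Members and lists were chosen with earlier results of these data known, so their counts are descriptions. Genes were named by role, with the 3 largest rises and falls of each comparison and the 2 largest differences of each pathway list, of which some are not reported here; genes with non-overlapping groups, Psma2, Psma4, Psma7, Psmb4, Psmc genes and other examples were chosen after their values were seen. The number of arrays limits the precision. Settings tried were scaling by quantiles or the median, the series matrix values, other background filters, the mean of spots, an intensity trend, array weights, slide row, 1 fit of 12 arrays, the title number as a block and leaving out each array.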

Additional observations from a re-analysis of the deposited data

How the results depend on the processing

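In all settings with a test, 0 proteasome genes were called for acrylamide in lung or in liver. The lung median ran from 0.0087 to 0.065 when 1 array was left out and was -0.0114 within slide row 1. The liver median ran from -0.02 to 0.05 without 1 array. It was 0.0698 after quantile normalization (-0.03 over all genes) and 0.129 with the mean of spots (0.03 over all genes). For lung minus liver on acrylamide arrays, 38 to 43 genes were called without 1 array, with medians of -0.93 to -0.88. Of the 42 calls 27 held after quantile normalization, with 1 new call, higher, 33 with median scaling and 31 within slide row 1, and the median was -0.39 after quantile normalization, -0.74 with median scaling, -0.95 with the mean of spots and -0.97 within slide row 2, where 1 array a group allows no test. On untreated arrays 39 to 41 were called without 1 array, with medians of -0.97 to -0.89. There 26 of the 41 calls held after quantile normalization, with 1 new call, higher, 31 with median scaling, also with 1 new call, higher (27 and 32 called in all), 23 within slide row 1 and 26 within row 2, and the median was -0.40 after quantile normalization, -0.70 with median scaling and -1.01 within row 2. Each slide row of the untreated arrays holds 1 array of a tissue, which is assumed to vary like the others. Quantile normalization turned the sign of 5 genes on acrylamide arrays and 6 on untreated arrays, and of 2 named genes that had been called, to 0.18 for Psmb10 on acrylamide arrays and 0.15 for Psme1 on untreated arrays; the cause was not tested. The acrylamide effect in lung minus liver was called for 0 to 1 gene without 1 array, the 1 being Psme3 without liver acrylamide 30, and for 1 with array weights. Over all genes 0.357% were called lower and 0.228% higher without liver acrylamide 30, and 0.438% and 0.159% with array weights. The lung minus liver pair differences kept direction and call in every setting with a test, ranging without 1 array from 1.03 to 1.22 for Psmb8 over Psmb5, 1.298 to 1.46 for Psmb9 over Psmb6 and 0.95 to 1.098 for Psmb10 over Psmb7.

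Title numbers 29, 30 and 4 stand in both tissues, and the labels do not say whether a number marks an animal. Arrays of the same number had correlations of their deviations from the group means of -0.02, -0.16 and 0.01 over 23283 genes, which do not settle it. With the number as a block, 43 genes were called on acrylamide arrays and 41 on untreated arrays, with medians of -0.91 and -0.91, and 0 for the effect between tissues. Groups within a tissue share no number, so no paired analysis of acrylamide was possible.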
